A study of Mus musculus with 36 samples.

Results

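The olfactory receptor genes Olfr90 to Olfr137 lie side by side on mouse chromosome 17, next to the genes of the major histocompatibility complex (MHC). They were taken by name: every gene whose GENCODE vM21 symbol is Olfr followed by a number in that range, with no suffix and with 1 number left out, which gave 43 genes of the 1107 olfactory receptor genes listed in the count tables. RNA had been captured with an antibody against phosphorylated ribosomal protein S6 from the olfactory epithelium of male wild-type C57BL/6J mice aged 8 weeks, housed singly and habituated for 4 h before 90 min with the odor source. The labels divide the 36 libraries into 3 sets of 12, each called a batch there, and each set holds its own no odor group, so odors were compared within their set. The first set holds mice exposed to acetophenone, to decanal, to an acetophenone-decanal mixture and to no odor. The second holds octanal, cis-3-hexenol, an octanal-hexenol mixture and no odor. The third holds a floral fragrance, a mint fragrance, a floral-mint mixture and no odor. Each group has 3 libraries, described as biological replicates. A total of 10 µL of pure odorant, of a mixture of equal parts or of fragrance was placed on filter paper, and the no odor mice had clean paper. A mixture therefore held less of each component than the single odorant did, and the composition of the fragrances is not given in the sources used here.

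Each mature olfactory sensory neuron expresses a single receptor gene from a single allele, and the receptor is a G protein-coupled protein that opens the cyclic nucleotide-gated channel through Gnal and Adcy3. Firing of a neuron leads to phosphorylation of S6 on its ribosomes, so that an antibody against phosphorylated S6 pulls down the RNA of neurons that were active, and the receptor RNA in the pull-down names the receptor of those neurons. Receptors of the MHC-linked cluster are ordinary receptors of the main olfactory epithelium, and closely related genes lie next to each other in the cluster. In tissue captured in bulk, more active neurons of a type and more captured receptor RNA per neuron cannot be told apart.

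By the receptor family numbers (MOR numbers) among the RefSeq synonyms, 16 of the 43 genes are of family 256, 9 of family 218, 7 of family 263, 5 of family 156, 4 of family 250 and 1 of family 121, and 1 had no number. The 193 pairs within a family shared between 54.7% and 97.2% of their coding bases (median 64.7%), and the 710 pairs that were not within one family shared between 54.0% and 65.2% (median 60.3%). Coding sequences are from the GENCODE vM21 transcripts, whose assembly differs from the GRCm39 named for the counts, so that names, order and sequence were used and positions were not. The sequences below are 150-base stretches around the aspartate and arginine codons of the conserved motif at the inner end of the third transmembrane helix. Capitals mark the bases that differ within each set. Olfr117 (ENSMUSG00000095286) and Olfr130, both of family 256, are shown because both rose with decanal and with octanal; they are 97.2% identical over their coding bases and differ at 2 positions of the stretch, which is bases 259 to 408 of each coding sequence.
Olfr117: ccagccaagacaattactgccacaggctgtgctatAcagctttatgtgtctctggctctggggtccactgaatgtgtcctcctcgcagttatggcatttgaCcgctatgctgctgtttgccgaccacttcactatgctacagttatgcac
Olfr130: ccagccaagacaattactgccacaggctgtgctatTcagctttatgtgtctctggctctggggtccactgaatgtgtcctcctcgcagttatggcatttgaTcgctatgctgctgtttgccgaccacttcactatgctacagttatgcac
Olfr119 (ENSMUSG00000059964), Olfr121 (ENSMUSG00000060017) and Olfr129 (ENSMUSG00000081724) of family 263 are shown because 1 was called with octanal, 1 with decanal and 1 with both. Olfr119 is 95.5% identical to Olfr121 and 91.9% identical to Olfr129, and Olfr121 is 93.1% identical to Olfr129. The stretch is bases 280 to 429 of Olfr119 and Olfr121 and bases 307 to 456 of Olfr129, and 13 positions differ.
Olfr119: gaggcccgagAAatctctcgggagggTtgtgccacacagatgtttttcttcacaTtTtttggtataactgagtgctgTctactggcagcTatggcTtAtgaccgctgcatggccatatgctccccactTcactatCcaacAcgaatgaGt
Olfr121: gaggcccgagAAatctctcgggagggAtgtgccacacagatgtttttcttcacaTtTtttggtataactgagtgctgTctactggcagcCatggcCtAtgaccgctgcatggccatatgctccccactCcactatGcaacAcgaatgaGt
Olfr129: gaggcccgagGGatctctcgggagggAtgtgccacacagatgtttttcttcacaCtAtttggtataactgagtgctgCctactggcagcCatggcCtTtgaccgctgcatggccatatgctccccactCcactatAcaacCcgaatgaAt
Olfr113 (ENSMUSG00000092292) and Olfr114 of family 218, 90.7% identical, are shown because both rose with the floral fragrance; the stretch is bases 262 to 411 of each, and 17 positions differ.
Olfr113: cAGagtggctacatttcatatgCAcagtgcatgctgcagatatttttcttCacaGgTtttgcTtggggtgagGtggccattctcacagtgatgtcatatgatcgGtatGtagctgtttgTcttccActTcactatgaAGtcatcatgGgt
Olfr114: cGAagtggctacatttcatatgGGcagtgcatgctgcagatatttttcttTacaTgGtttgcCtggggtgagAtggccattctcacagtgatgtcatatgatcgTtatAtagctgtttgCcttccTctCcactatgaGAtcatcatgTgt

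The libraries held between 16.04 M and 26.39 M counts, of which between 1572 and 8889 were on the 43 receptors. The 43 receptors made up between 3.51% and 6.24% of the counts on receptor genes. Summed markers of mature olfactory sensory neurons ran from 10360 to 25930 CPM (counts per M counts of the scaled library) in the odor libraries, against 7192 to 13320 CPM in the no odor libraries, and within each set the odor groups lay above no odor without overlap. Summed red blood cell markers varied more: they were at 7454 to 28130 CPM in the octanal, cis-3-hexenol and mixture libraries, against 78080 to 92660 CPM in no odor of that set, and at 39360 to 42140 CPM with decanal, 30670 to 37210 CPM with its mixture and 2567 to 13120 CPM with acetophenone, against 15520 to 20990 CPM in their no odor group. Of the 6 red blood cell markers, 6 were called lower with each odor of the octanal set, 5 were called higher with floral, and of the 6 mature neuron markers between 3 and 6 were called higher with each odor. The 4 neutrophil and the 4 bone markers were all called lower with octanal and with its mixture, and 2 and 3 of them with cis-3-hexenol. With octanal 3 of 4 markers of ensheathing glia and 3 of 3 of horizontal basal cells were called lower, and of the 3 globose basal cell markers 2 were called lower with decanal and 3 with its mixture. The part of these marker lists in the receptor results was not tested. Scaling to the median receptor gene, in place of all genes, moved the median change of all genes to -0.14 for acetophenone, -0.20 for octanal, -0.46 for cis-3-hexenol and -0.50 for their mixture on the log2 scale.

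Of the 43 receptors, 41 had enough counts to be tested in at least 1 set and 37 in all 3 sets. Olfr108 had 0 counts in the 36 libraries and Olfr98 had at most 5 counts in a library; neither was tested. A call is an adjusted p under 0.05 (edgeR quasi-likelihood test, adjusted over all genes tested by Benjamini and Hochberg's method). Against no odor, 22 receptors were called higher with at least 1 odor, 5 lower with at least 1, and 4 did both in different comparisons. These were 72 higher and 6 lower calls in 348 pairs of a receptor and an odor. The shares of all genes called are given for each odor below. In each of the 78 the 3 odor libraries lay wholly to one side of the 3 no odor libraries. Such separation was common over all genes: with octanal it held for 14 of 37 receptors and 8233 of 19568 genes. With decanal it held for 17 of 39 receptors and 8155 of 19514 genes. It is therefore not read as a trait of the series. The 18 receptors that were tested and never called had log2 changes between -2.19 and 3.74 and an adjusted p no smaller than 0.0706.

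**Figure D1:**
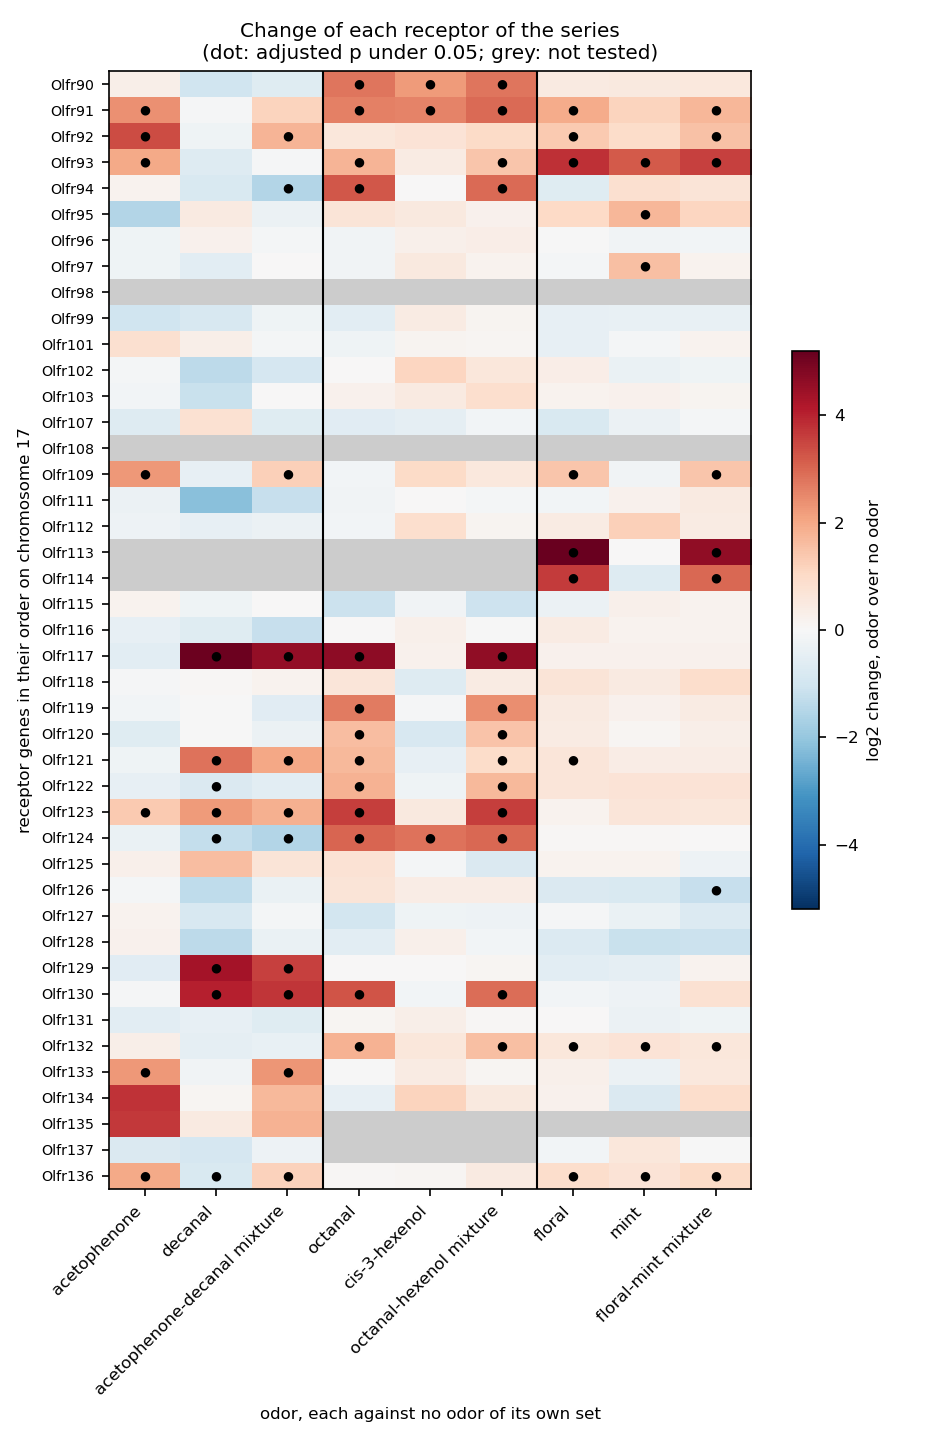
Log2 change of each of the 43 receptors (rows, in their order on chromosome 17) with each of the 9 odors over no odor of the same set (columns), where colour gives the change, a dot an adjusted p under 0.05 and grey a receptor that was not tested. Dots fill the rows Olfr117 to Olfr124 with octanal except Olfr118, while the floral and mint columns have theirs mainly at both ends of the series and at Olfr109, Olfr113 and Olfr114.

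Octanal and its mixture called the largest share of the series among the 9 odors, and also of all genes and of receptor genes. This rank is therefore not read as a trait of the series. With octanal 13 of 37 tested receptors (35.1%) were called, all higher, where 32.3% of all genes and 24.2% of receptor genes tested were called in either direction and 17.9% and 21.4% were called higher. With the octanal-hexenol mixture 13 of 37 (35.1%) were called, again all higher, against 32.5% of all genes and 23.9% of receptor genes in either direction and 17.7% and 23.1% higher. With cis-3-hexenol alone 3 of 37 (8.11%) were called, all higher, against 5.74% of all genes and 7.92% of receptor genes in either direction and 2.58% and 7.92% higher. Scaled to the median receptor gene, 3 were higher and 2 lower with cis-3-hexenol, and 12 higher and 1 lower with the octanal-hexenol mixture. The cis-3-hexenol share was near that of receptor genes. The octanal and mixture counts include Olfr94, which in the octanal set was tested only because of its counts in these 2 groups. Those counts of called receptors are therefore not read against the shares of other genes.

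With acetophenone 7 of 39 tested receptors (17.9%) were called, all higher, against 5.49% of all genes and 13.6% of receptor genes in either direction and 4.22% and 12.7% higher. With decanal 8 of 39 (20.5%) were called, 5 higher and 3 lower, against 22.3% and 14.3%. With the acetophenone-decanal mixture 11 of 39 (28.2%) were called, 9 higher and 2 lower, against 21.4% and 19.7%. With floral 9 of 40 (22.5%) were called, all higher, against 14.0% and 11.5% in either direction and 8.70% and 9.68% higher. With mint 5 of 40 (12.5%) were called, all higher, against 11.2% and 14.3% in either direction and 7.10% and 12.8% higher. With the floral-mint mixture 9 of 40 (22.5%) were called, 8 higher and 1 lower, against 9.64% and 13.3%. Median log2 changes of the tested receptors of the series ran from -0.43 with decanal to 0.45 with the octanal-hexenol mixture, while the medians over all genes tested lay between -0.05 and 0.05. For the octanal-hexenol mixture the median of the other receptor genes was 0.24, and for cis-3-hexenol it was 0.46, against 0.28 in the series. Scaled to the median receptor gene, the median of the series was 0.03 for the octanal-hexenol mixture and -0.22 for cis-3-hexenol, so its direction for cis-3-hexenol depends on the scaling. The floral and floral-mint counts include Olfr113 and Olfr114, which were tested only because of their counts in these 2 groups, so those counts are not read against the shares of other genes.

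The straight-chain aldehydes octanal and decanal gave the highest changes of the first 2 sets in the series. Olfr117 had 92.6, 77.3 and 68.7 CPM in the decanal libraries, against 1.43, 1.90 and 3.65 CPM in no odor. In the octanal libraries Olfr117 had 27.5, 32.9 and 43.8 CPM, against 0.744, 1.64 and 1.83 CPM in no odor. Each aldehyde library lay far above each no odor library, and the mixtures did so as well, with 36.3 to 73.0 CPM for acetophenone-decanal and 26.1 to 40.0 CPM for octanal-hexenol. The log2 change of Olfr117 was 5.10 (SE 0.319, adjusted p = 3.48e-07, edgeR) with decanal and 4.65 (SE 0.327, adjusted p = 1.94e-07, edgeR) with octanal. Acetophenone left it at 1.18 to 1.84 CPM and cis-3-hexenol at 1.01 to 2.22 CPM, within or next to the no odor range.

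Olfr130, the near copy of Olfr117 that lies 13 receptors further along the series, changed in the same comparisons. It had 7.11, 7.14 and 9.71 CPM with decanal, against 0.391, 0.517 and 0.529 CPM in no odor, a log2 change of 4.04 (SE 0.414, adjusted p = 4.05e-05, edgeR). With octanal it had 3.80, 4.16 and 5.26 CPM, against 0.248, 0.459 and 0.649 CPM in no odor, a log2 change of 3.29 (SE 0.473, adjusted p = 0.000112, edgeR). The groups did not overlap. Reads of the pair can be assigned to the wrong copy: per kilobase of exon, Olfr130 stood at 5.88% of Olfr117 with decanal and 7.43% with octanal, against 12.1% and 18.9% in their no odor groups, over the summed libraries. The part of shared reads in the change of Olfr130 was not tested.

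Olfr123, a family 256 receptor 70.2% identical to Olfr117, rose with both aldehydes and with acetophenone. It had 21.0, 23.1 and 37.5 CPM with octanal, against 1.09, 2.62 and 3.07 CPM in no odor. With decanal it had 16.1, 21.1 and 22.5 CPM and with acetophenone 8.51, 11.7 and 12.6 CPM, against 4.04, 4.23 and 4.57 CPM in no odor. Every odor library exceeded every no odor library, and the 2 odors of that set did not overlap. The log2 change of Olfr123 was 3.61 with octanal (SE 0.314, adjusted p = 1.58e-06, edgeR). It was 2.21 with decanal (SE 0.221, adjusted p = 3.56e-05) and 1.35 with acetophenone (SE 0.219, adjusted p = 0.00283, edgeR).

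The family 263 receptors split between the aldehydes. Olfr129 had 16.9, 17.9 and 22.5 CPM with decanal, against 0.398, 1.17 and 1.28 CPM in no odor, a log2 change of 4.34 (SE 0.405, adjusted p = 2.08e-05, edgeR). With octanal it had 2.7, 2.90 and 3.37 CPM, against 2.78, 2.95 and 3.02 CPM in no odor. The decanal groups stood apart and the octanal groups overlapped. Olfr121 rose with both: it had 43.3, 43.8 and 45.6 CPM with decanal, against 3.58, 5.29 and 9.99 CPM in no odor, a log2 change of 2.82 (SE 0.287, adjusted p = 4.04e-05, edgeR). With octanal Olfr121 had 7.73, 16.2 and 23.1 CPM, against 3.90, 4.86 and 5.71 CPM in no odor, a log2 change of 1.70 (SE 0.311, adjusted p = 0.000764, edgeR). Neither pair of groups overlapped, and the 3 octanal libraries spread much more widely than the 3 decanal libraries.

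Olfr119, the closest relative of Olfr121, rose with octanal and was not called with decanal. Reads of this pair can be assigned to the wrong gene, and their part in the changes was not tested. Olfr119 had 10.7, 14.9 and 21.7 CPM with octanal, against 1.97, 2.24 and 3.07 CPM in no odor, a log2 change of 2.69 (SE 0.270, adjusted p = 6.31e-06, edgeR). With decanal it had 4.04, 5.11 and 6.65 CPM, against 4.23, 4.85 and 6.95 CPM in no odor, and the libraries overlapped. Its relatives Olfr120 and Olfr122 also rose with octanal. Olfr120 had 8.06, 8.27 and 8.86 CPM with octanal, against 2.08, 2.62 and 3.54 CPM in no odor (log2 change 1.61, SE 0.235, adjusted p = 0.000125, edgeR). Olfr122 had 17.5, 22.5 and 27.9 CPM with octanal, against 4.86, 6.43 and 8.09 CPM in no odor (log2 change 1.81, SE 0.227, adjusted p = 3.70e-05, edgeR). With decanal Olfr122 fell, to 8.49, 9.66 and 10.58 CPM, against 12.5, 14.6 and 21.2 CPM in no odor, a log2 change of -0.75 (SE 0.210, adjusted p = 0.0206, edgeR) that did not pass without no odor replicate 3 or without decanal replicate 1. Olfr118, 95.1% identical to Olfr120, was not called over no odor with any of the 9 odors.

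**Figure D2:**
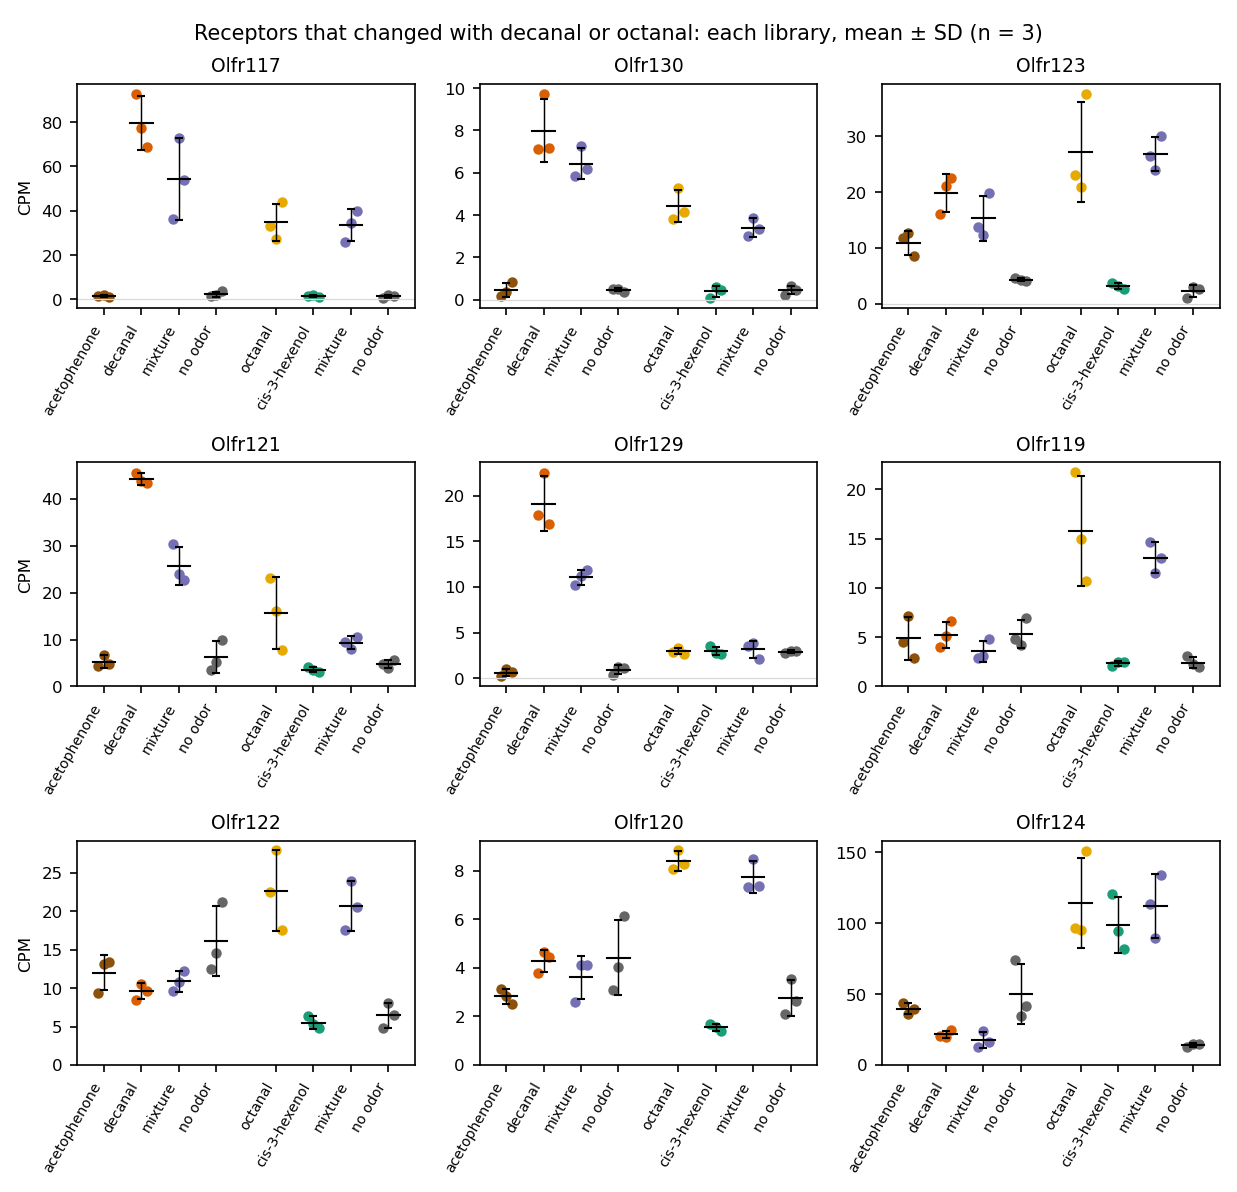
CPM of 9 receptors in each library (points) with the mean (line) and SD (bars) of 3 libraries per group; the left block is the set of acetophenone, decanal and their mixture, the right block that of octanal, cis-3-hexenol and their mixture, each ending with its no odor group. Olfr129 stands above no odor with decanal and its mixture alone, Olfr119 and Olfr120 with octanal and its mixture alone, and Olfr117 with both aldehydes.

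Olfr124 (ENSMUSG00000044985) moved in opposite directions in the 2 sets. The octanal libraries held 95, 96.7 and 151 CPM, the cis-3-hexenol libraries 81.5, 94.4 and 120 CPM and those of their mixture 89.2, 113 and 134 CPM, against 12.7, 14.6 and 15 CPM in no odor. The 9 odor libraries overlapped one another and lay far above no odor. The log2 change of Olfr124 came to 3.02 for octanal (SE 0.219, adjusted p = 2.30e-07, edgeR). It came to 2.81 for cis-3-hexenol (SE 0.217, adjusted p = 4.33e-06) and to 2.99 for the mixture (SE 0.219, adjusted p = 2.66e-07; edgeR). With decanal it had 20.0, 20.3 and 24.3 CPM and with the acetophenone-decanal mixture 12.4, 16.4 and 23.8 CPM, against 34.7, 41.5 and 73.8 CPM in no odor. Those odor libraries lay below no odor without overlap, where the log2 changes came to -1.22 (SE 0.258, adjusted p = 0.00426) and -1.51 (SE 0.260, adjusted p = 0.00133; edgeR). The no odor level itself differed between the sets, which were scaled separately: the third set had 19.3, 20.5 and 27.0 CPM in no odor.

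Olfr90, Olfr91, Olfr93, Olfr94 and Olfr132, all of family 256, completed the octanal calls. Olfr90 had 10.32, 11.2 and 23.5 CPM with octanal and 5.64, 7.72 and 17.3 CPM with cis-3-hexenol, against 1.88, 1.90 and 2.77 CPM in no odor; its log2 changes were 2.78 (SE 0.422, adjusted p = 0.000178) and 2.22 (SE 0.420, adjusted p = 0.00791; edgeR). Olfr91 was also higher with both, by a log2 change of 2.62 (SE 0.574, adjusted p = 0.00278) with octanal and 2.57 (SE 0.572, adjusted p = 0.0186; edgeR) with cis-3-hexenol. Both receptors were higher in each odor library than in each no odor library, and the cis-3-hexenol call of Olfr91 did not pass without no odor replicate 2, no odor replicate 3 or cis-3-hexenol replicate 1. Olfr90, Olfr91 and Olfr124 were the 3 receptors called with cis-3-hexenol alone. Parts of the Olfr90 transcript closely match receptors outside the series, among them Olfr1385 (96.7% over 492 bases) and Olfr1238 (97.5% over 201 bases). The counts of Olfr90 may hold reads of those receptors, and the part of such reads in its changes was not tested. Octanal also gave log2 changes of 1.77 for Olfr93 (SE 0.295, adjusted p = 0.000365, edgeR) and 1.79 for Olfr132 (SE 0.294, adjusted p = 0.000327, edgeR). For Olfr94 the change was 3.24 (SE 0.818, adjusted p = 0.00713, edgeR), with 0, 3 and 14 counts in the no odor libraries. Only the octanal and mixture groups of this set held at least 10 counts of Olfr94 in all 3 libraries. It thus entered the test through groups in which it is high.

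The question of how far the 2 aldehydes differ, which differ by a pair of carbons in the chain, crosses sets, so each response was taken relative to its own no odor group and the difference was tested in 1 fit of 24 libraries, a comparison chosen after the data were seen. This was 1 pair of compounds, given at the same volume and for the same time. In that fit, 12 of 39 tested receptors of the series responded differently, 11 more to octanal and 1 more to decanal, where 29.2% of all genes and 19.7% of receptor genes tested were called in either direction. The share of the series, 30.8%, was near that of all genes. Receptor genes leaned the same way, with 144 responding more to octanal and 38 more to decanal. For all genes these numbers were 3326 and 2706. Olfr129 was the receptor with the higher decanal response, by a log2 difference (octanal minus decanal) of -4.32 (95% interval -5.35 to -3.29, adjusted p = 1.64e-06, edgeR). Olfr124 differed by 4.21 (3.47 to 4.95, adjusted p = 1.05e-07, edgeR), Olfr119 by 2.68 (1.76 to 3.60, adjusted p = 9.75e-05, edgeR) and Olfr122 by 2.54 (1.88 to 3.19, adjusted p = 4.24e-06, edgeR). Olfr90 differed by 3.78 (2.58 to 4.99, adjusted p = 4.505e-05, edgeR), Olfr132 by 2.25 (1.39 to 3.11, adjusted p = 0.0002935, edgeR) and Olfr123 by 1.37 (0.56 to 2.17, adjusted p = 0.0104, edgeR).

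For the near copies Olfr117 and Olfr130 no difference passed: the intervals of octanal minus decanal were -1.48 to 0.53 and -2.10 to 0.56 on the log2 scale. These intervals allow a response to decanal well above that to octanal and do not show that the aldehydes act alike. For Olfr121 the difference was -1.14 (-2.05 to -0.23, adjusted p = 0.0547, edgeR), which did not pass after adjustment. Of the 12 calls, Olfr126 (1.97, adjusted p = 0.0386, edgeR) had a response to neither aldehyde that passed by itself.

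**Figure D3:**
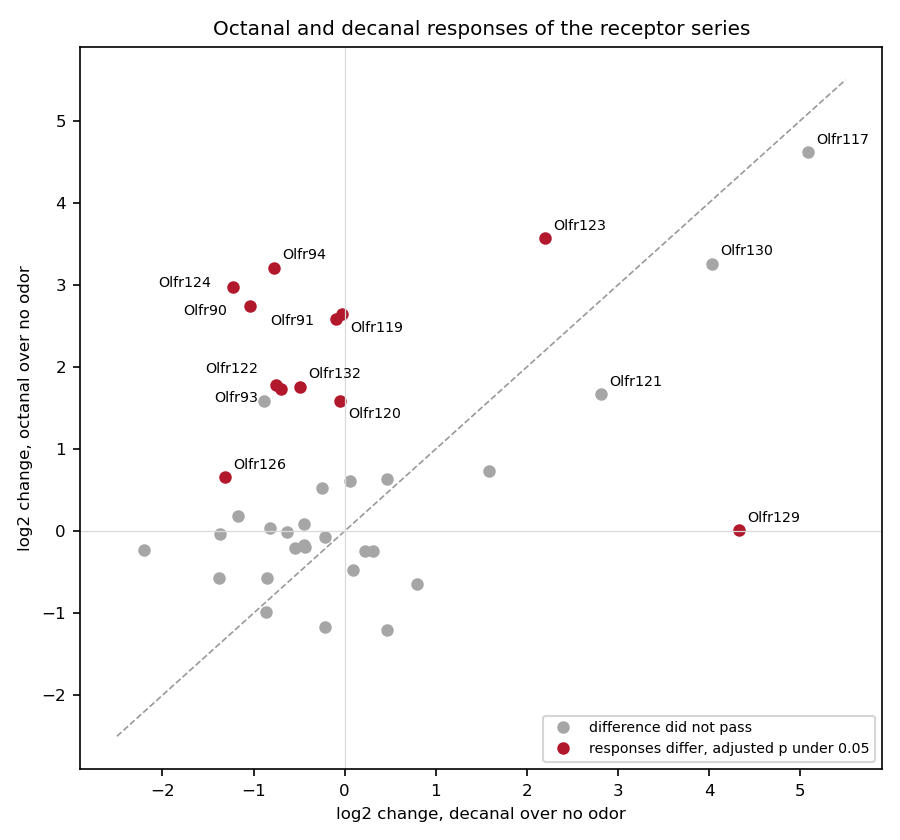
Log2 change with decanal (horizontal) and with octanal (vertical), each over its own no odor group, for the 39 receptors tested in the fit of 24 libraries; red marks receptors whose 2 responses differed at an adjusted p under 0.05, and the dashed line marks equal responses. Olfr129 lies on the horizontal axis with a decanal change of 4.33 and an octanal change of 0.01, Olfr124 at -1.22 and 2.98, and Olfr117 and Olfr130 near the line.

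Octanal and cis-3-hexenol were also compared directly within their set. Octanal against cis-3-hexenol called 11 of 37 receptors, all higher, where 21.0% of all genes and 28.1% of receptor genes were called in either direction and 12% and 15.9% higher. The 6 with the smallest p were Olfr117 (log2 difference 4.43, adjusted p = 3.06e-07), Olfr123 (3.08, adjusted p = 1.22e-05), Olfr119 (2.74, adjusted p = 1.32e-05), Olfr120 (2.43, adjusted p = 1.67e-05), Olfr122 (2.04, adjusted p = 4.88e-05) and Olfr130 (3.44, adjusted p = 0.000296; edgeR). The octanal-hexenol mixture against cis-3-hexenol called 10 of 37 receptors, all higher, against 12.9% of all genes and 15.3% of receptor genes in either direction and 7.86% and 13.5% higher, and this count was 6 without cis-3-hexenol replicate 2 or without replicate 3. The mixture against octanal called 0 of 37 receptors (edgeR; also 0 with DESeq2; 1 at an unadjusted p under 0.05), against 0.0715% of all genes and 1.28% of receptor genes. The receptor with that unadjusted p was Olfr121, which had 8.05, 9.45 and 10.64 CPM in the mixture, against 7.73, 16.2 and 23.1 CPM with octanal.

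Acetophenone, an aromatic ketone, raised 7 receptors of the series, Olfr123 among them. Olfr136 (ENSMUSG00000096840), the last receptor of the series on the chromosome, had 63.1, 73.0 and 94.3 CPM with acetophenone, against 12.6, 17.9 and 27.5 CPM in no odor, a log2 change of 1.99 (SE 0.249, adjusted p = 0.000487, edgeR). Olfr92 had 13.4, 18.6 and 55.4 CPM with acetophenone, against 2.30, 2.54 and 3.35 CPM in no odor, a log2 change of 3.41 (SE 0.454, adjusted p = 0.000761, edgeR). Olfr109, of family 250, had 14, 19.4 and 25.6 CPM, against 2.58, 4.67 and 5.30 CPM in no odor, a log2 change of 2.24 (SE 0.310, adjusted p = 0.00107, edgeR). The groups did not overlap for any of the 3, and 1 acetophenone library carried Olfr92 well above the other 2. Olfr93 had 15.3, 18.7 and 36.1 CPM, against 4.72, 6.08 and 7.25 CPM in no odor (log2 change 1.96, SE 0.303, adjusted p = 0.00215, edgeR). Olfr91 had 3.44, 4.05 and 4.18 CPM, against 0.391, 0.874 and 0.970 CPM in no odor (log2 change 2.37, SE 0.450, adjusted p = 0.00774, edgeR). Olfr136 shares over 95% of its aligned bases with Olfr138, and Olfr92 with a receptor pseudogene elsewhere, so their counts may hold reads of those copies.

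Olfr133 is 1 of 3 near copies, and is 95.3% identical over its coding bases to Olfr134 and to Olfr135. The 3 sequences, bases 262 to 411 of each, are shown because each copy lay above no odor with acetophenone and 1 of them passed the test; 7 positions differ.
Olfr133: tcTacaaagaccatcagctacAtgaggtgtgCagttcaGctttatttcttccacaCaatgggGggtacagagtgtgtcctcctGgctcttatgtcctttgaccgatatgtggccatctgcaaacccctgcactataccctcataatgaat
Olfr134: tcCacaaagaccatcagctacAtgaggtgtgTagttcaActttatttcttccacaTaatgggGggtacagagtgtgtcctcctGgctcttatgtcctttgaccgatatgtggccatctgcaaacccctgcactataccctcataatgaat
Olfr135: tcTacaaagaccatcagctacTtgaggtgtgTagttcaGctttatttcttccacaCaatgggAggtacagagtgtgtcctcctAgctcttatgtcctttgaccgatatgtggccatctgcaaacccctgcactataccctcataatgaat
Olfr133 had 5.01, 5.38 and 6.33 CPM with acetophenone, against 0.825, 0.994 and 1.72 CPM in no odor, a log2 change of 2.24 (SE 0.454, adjusted p = 0.0117, edgeR) that did not pass without acetophenone replicate 2 or without no odor replicate 3. Olfr134 had 0.672, 0.927 and 4.94 CPM with acetophenone, against 0.0398, 0.132 and 0.304 CPM in no odor, a log2 change of 3.74 that was not called (adjusted p = 0.0887, edgeR). Olfr135 had 1.64, 1.93 and 2.11 CPM with acetophenone, against 0, 0 and 0.434 CPM in no odor, a log2 change of 3.68 that was not called (adjusted p = 0.0813, edgeR). Olfr135 was tested in this set only, with 46, 47 and 39 counts with acetophenone, against 0, 0 and 10 counts in no odor. In this set acetophenone was the only group with at least 10 counts in all 3 libraries for Olfr134, as for Olfr135. Both entered the test through it, so their changes are not read as support beside Olfr133. The 3 acetophenone libraries lay above no odor for each copy, and reads of the copies can be assigned to one another.

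Acetophenone against decanal, both given in the same set, called 17 of 39 receptors, 11 higher and 6 lower, where 29.5% of all genes and 30.9% of receptor genes were called in either direction. Without decanal replicate 1 the count was 11. The 6 with the smallest p were Olfr117 (log2 difference -5.66, adjusted p = 1.90e-07), Olfr129 (-4.93, adjusted p = 5.21e-06), Olfr136 (2.80, adjusted p = 8.42e-06), Olfr121 (-3.06, adjusted p = 9.76e-06), Olfr130 (-4.11, adjusted p = 1.56e-05) and Olfr93 (2.65, adjusted p = 4.81e-05; edgeR). Decanal by itself lowered Olfr136, to 10.0, 11.2 and 11.8 CPM, against 12.6, 17.9 and 27.5 CPM in no odor, by a log2 change of -0.81 (SE 0.256, adjusted p = 0.0350, edgeR) that did not pass in 7 of 12 alternatives. Those 7 included the removal of no odor replicate 2, no odor replicate 3 or any 1 decanal library.

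The acetophenone-decanal mixture raised receptors of both components. It raised Olfr117 (log2 change 4.55, SE 0.314, adjusted p = 1.55e-06), Olfr130 (3.73, SE 0.412, adjusted p = 8.03e-05), Olfr129 (3.55, SE 0.399, adjusted p = 8.89e-05), Olfr121 (2.03, SE 0.282, adjusted p = 0.000340) and Olfr123 (1.83, SE 0.220, adjusted p = 0.000133; edgeR), which decanal also raised. It raised Olfr136 (1.18, SE 0.246, adjusted p = 0.00412), Olfr92 (1.75, SE 0.443, adjusted p = 0.0126), Olfr109 (1.23, SE 0.307, adjusted p = 0.0114) and Olfr133 (2.30, SE 0.455, adjusted p = 0.00310; edgeR), which acetophenone also raised. These calls share the no odor libraries. Olfr93, raised by acetophenone and not called with decanal, had 5.05, 5.19 and 7.06 CPM in the mixture, against 4.72, 6.08 and 7.25 CPM in no odor, and the libraries overlapped. Olfr94 fell with the mixture, to 0.551, 0.588 and 0.945 CPM, against 1.83, 2.03 and 2.21 CPM in no odor, a log2 change of -1.53 (SE 0.370, adjusted p = 0.00957, edgeR).

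Set against its components, the mixture differed from acetophenone in 12 of 39 receptors, 4 higher and 8 lower, where 25.7% of all genes and 18.0% of receptor genes were called; scaled to the median receptor gene, 5 were higher and 4 lower. The 4 higher were Olfr117 (log2 difference 5.12, adjusted p = 8.51e-07), Olfr129 (4.14, adjusted p = 2.64e-05), Olfr130 (3.80, adjusted p = 4.14e-05) and Olfr121 (2.27, adjusted p = 0.000102; edgeR). Olfr93 was lower in the mixture than with acetophenone by a log2 difference of -2.02 (SE 0.305, adjusted p = 0.000365, edgeR), with 5.05, 5.19 and 7.06 CPM in the mixture and 15.3, 18.7 and 36.1 CPM with acetophenone. Olfr94 was lower by -1.71 (SE 0.370, adjusted p = 0.00400, edgeR). The mixture held less of each odorant, so a lower level in it is a comparison at unequal amounts.

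Against decanal the mixture was higher in 3 of 39 receptors and lower in 0, where 0.287% of all genes and 6.11% of receptor genes were called in either direction and 0.251% and 5.41% higher. Olfr136 had 32.9, 43.8 and 55.0 CPM in the mixture, against 10.0, 11.2 and 11.8 CPM with decanal (log2 difference 2.00, SE 0.257, adjusted p = 0.00169, edgeR), and the groups did not overlap. The other 2, Olfr133 (2.50, SE 0.465, adjusted p = 0.0393) and Olfr109 (1.67, SE 0.317, adjusted p = 0.0427; edgeR), did not pass in several alternatives: the count was 1 without decanal replicate 1, without decanal replicate 3 or without mixture replicate 1.

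The fragrances of the third set raised Olfr93 (ENSMUSG00000091601), which had the smallest p of the series with each of them. It had 20.6, 36.9 and 38.4 CPM with floral, 16.5, 22.4 and 23.8 CPM with mint and 22.6, 23.2 and 35.4 CPM with their mixture, against 1.92, 2.11 and 2.78 CPM in no odor. The 9 fragrance libraries overlapped one another, and each lay far above the no odor libraries. The log2 changes of Olfr93 were 3.81 with floral (SE 0.272, adjusted p = 6.49e-07), 3.20 with mint (SE 0.272, adjusted p = 2.91e-06) and 3.57 with the mixture (SE 0.271, adjusted p = 9.70e-07; edgeR). Its relatives Olfr91 and Olfr92, 87.5% and 89.4% identical to it, rose with floral by 1.92 (SE 0.404, adjusted p = 0.00702) and 1.38 (SE 0.308, adjusted p = 0.00943; edgeR), and neither was called with mint. The floral call of Olfr92 did not pass without no odor replicate 1.

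Floral and mint parted at Olfr113 and Olfr114. Olfr113 had 67, 50 and 61 counts with floral (1.94 to 2.61 CPM) and 32 to 60 counts with the floral-mint mixture, against 1, 1 and 2 counts with mint and 0, 1 and 4 counts in no odor. Its log2 change over no odor was 5.13 with floral (SE 0.562, adjusted p = 6.10e-05) and 4.62 with the mixture (SE 0.571, adjusted p = 0.000156; edgeR). Olfr114 had 31, 37 and 77 counts with floral and 18, 25 and 52 counts with the mixture, against 1, 1 and 4 counts with mint and 1, 2 and 9 counts in no odor. Its log2 change was 3.65 with floral (SE 0.649, adjusted p = 0.00265) and 3.00 with the mixture (SE 0.660, adjusted p = 0.0101; edgeR), and the mixture call did not pass without no odor replicate 3 or without mixture replicate 1. Both receptors were tested in this set only, where these groups gave them enough counts, and at such counts the size of a change depends on the prior count of the fit.

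Compared directly, floral against mint called 3 of 40 receptors, 2 higher and 1 lower, where 0.354% of all genes and 7.08% of receptor genes were called. Of the 3, Olfr113 and Olfr114 entered the test through the floral and mixture groups in which they are high, so the count is not read against those shares, and their log2 differences over a few mint counts are fitted values. The 2 higher were Olfr113 (log2 difference 5.12, SE 0.588, adjusted p = 0.000250) and Olfr114 (4.32, SE 0.726, adjusted p = 0.0115; edgeR). Olfr97, of family 156, was lower: it had 1.52, 2.64 and 2.73 CPM with floral, against 4.12, 7.53 and 10.44 CPM with mint (-1.68, SE 0.310, adjusted p = 0.0248, edgeR). The floral and mint libraries did not overlap for Olfr97, but its call did not pass in 6 of 12 alternatives, among them the removal of any 1 floral library, of mint replicate 2 or of mint replicate 3. The call of Olfr114 did not pass without floral replicate 3, mint replicate 1 or mint replicate 3, and the count was 1 without mint replicate 3.

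Olfr97 rose with mint over no odor, where it had 2.44, 2.51 and 2.53 CPM, by a log2 change of 1.56 (SE 0.307, adjusted p = 0.00457, edgeR). Olfr95, of family 263, also rose with mint, to 2.08, 3.93 and 6.23 CPM, against 1.12, 1.14 and 1.43 CPM in no odor (1.74, SE 0.346, adjusted p = 0.00494, edgeR). Olfr136 rose with all 3 fragrances: it had 21.4, 22.0 and 24.9 CPM with floral, 16.4, 18.7 and 25.2 CPM with mint and 21.2, 24.2 and 27.9 CPM with the mixture, against 11.5, 12.1 and 13.0 CPM in no odor. No library of the fragrances overlapped no odor, and the log2 change of Olfr136 was 0.90 with floral (SE 0.146, adjusted p = 0.00143), 0.72 with mint (SE 0.148, adjusted p = 0.00583) and 1.00 with their mixture (SE 0.146, adjusted p = 0.000650; edgeR). Olfr132 was called with each fragrance as well, by 0.58, 0.71 and 0.59 (adjusted p = 0.0230, 0.00808 and 0.0251, edgeR), and its floral call did not pass without no odor replicate 1, no odor replicate 3 or floral replicate 2. In 1 fit of the 36 libraries the mint calls of Olfr95, Olfr136 and Olfr132 did not pass (adjusted p = 0.08726, 0.05345 and 0.128, edgeR).

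**Figure D4:**
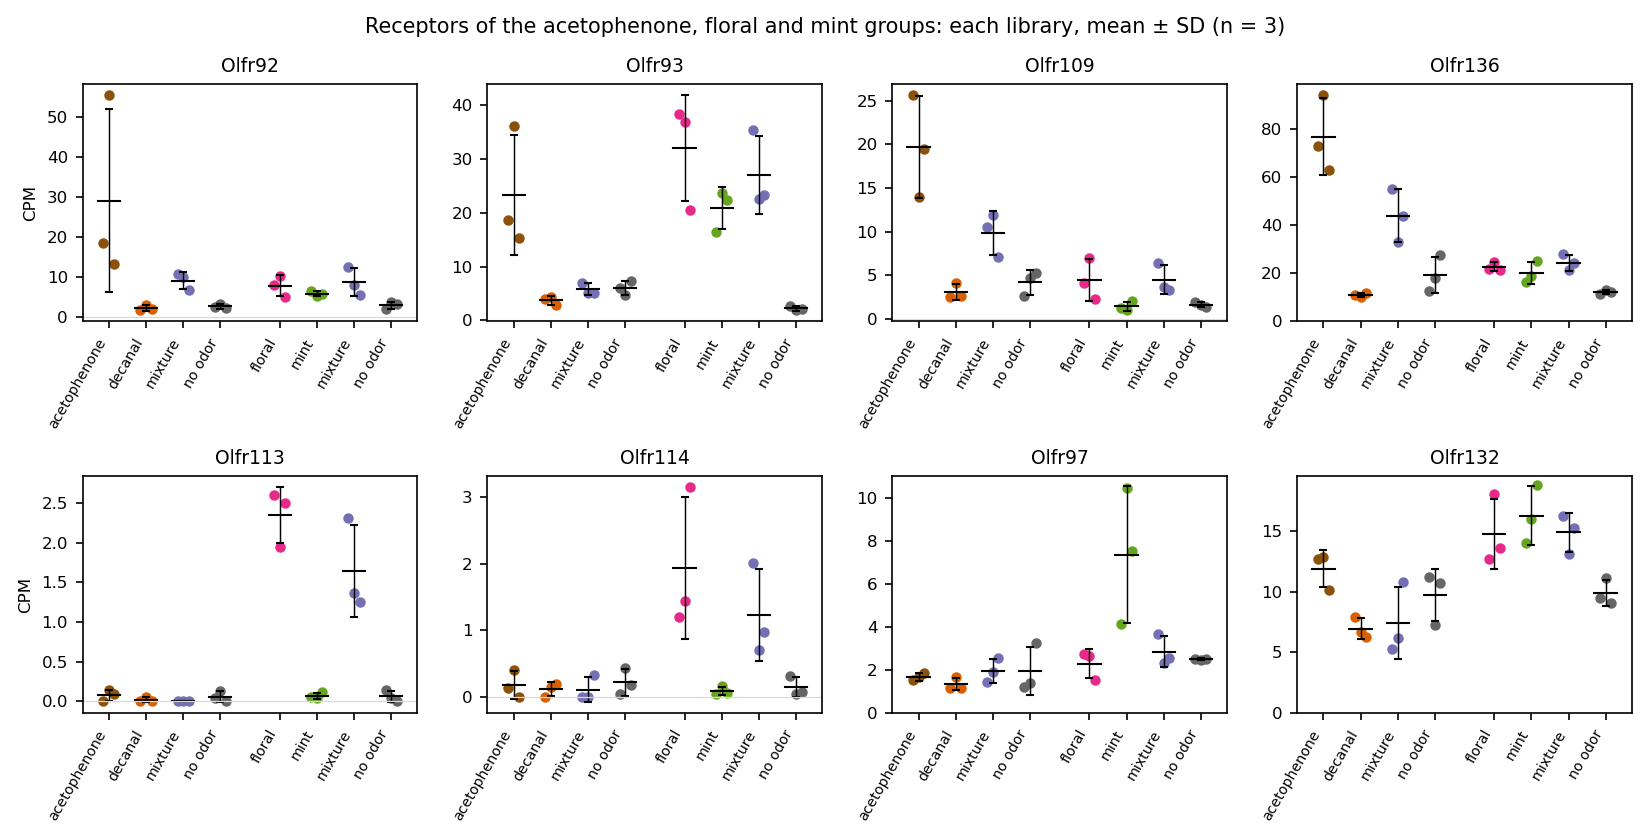
CPM of 8 receptors in each library (points) with the mean (line) and SD (bars) of 3 libraries per group; the left block is acetophenone, decanal, their mixture and no odor, the right block floral, mint, their mixture and no odor. Olfr113 and Olfr114 stand above no odor with floral and the floral-mint mixture, Olfr97 with mint, and Olfr93 with all 3 fragrances and acetophenone.

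Olfr109 and Olfr121 were among the weaker floral calls. Olfr109 had 2.30, 4.13 and 6.995 CPM with floral, against 1.36, 1.65 and 1.92 CPM in no odor (log2 change 1.44, SE 0.376, adjusted p = 0.0210, edgeR). It did not pass without any 1 of the no odor libraries or without floral replicate 2. Olfr121 had 5.29, 5.45 and 5.48 CPM with floral, against 2.95, 3.03 and 4.54 CPM in no odor (0.62, SE 0.197, adjusted p = 0.0472, edgeR), and did not pass in 9 of 12 alternatives. Without no odor replicate 1 the floral count was 5 in place of 9.

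The floral-mint mixture raised 8 receptors over no odor, among them Olfr91 (log2 change 1.72, SE 0.405, adjusted p = 0.0146), Olfr92 (1.54, SE 0.307, adjusted p = 0.00557) and Olfr109 (1.45, SE 0.375, adjusted p = 0.0238; edgeR). The calls of Olfr91 and Olfr109 did not pass without no odor replicate 1, no odor replicate 3 or mixture replicate 1, nor did that of Olfr132. It lowered Olfr126, of family 218, to 1.21, 1.33 and 1.93 CPM, against 2.49, 2.97 and 4.87 CPM in no odor (-1.20, SE 0.287, adjusted p = 0.0160, edgeR). The groups of Olfr126 did not overlap, and its call did not pass without no odor replicate 3, mixture replicate 2 or mixture replicate 3. Without no odor replicate 3 the mixture count was 4, and without mixture replicate 1 it was 5, in place of 9. The mixture against mint called 1 of 40 receptors, Olfr113 (log2 difference 4.61, SE 0.601, adjusted p = 0.00327, edgeR). The shares called were 0.104% of all genes and 2.13% of receptor genes in either direction, and 0.0625% and 1.30% higher. Olfr113 entered the test through the floral and mixture groups in which it is high, so the count is not read against these shares. The count was 2 without mint replicate 1. The mixture against floral called 0 of 40 (edgeR; also 0 with DESeq2; 3 at an unadjusted p under 0.05), against 0.120% of all genes and 2.13% of receptor genes.

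Olfr91 to Olfr93 and Olfr136 were the receptors called with both acetophenone and floral besides Olfr109. In the first set Olfr93 changed by 1.96 and in the third by 3.81 on the log2 scale, while Olfr92 changed by 3.41 and 1.38 and Olfr136 by 1.99 and 0.90. These odors belong to different sets with different mice, and the difference between their responses was not tested.

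Without odor, the series, 43 of the 1107 listed receptor genes, held 4.88% to 5.73% of the counts on receptor genes in the first set. It held 3.90% to 4.17% in the second set and 3.86% to 4.27% in the third. Per kilobase of exon, over the 9 no odor libraries, the 5 highest were Olfr124 (mean 6.17 CPM per kilobase, 2.72 to 15.8), Olfr131 (6.17, 4.91 to 9.03), Olfr136 (4.69, 1.70 to 10.35), Olfr132 (4.62, 2.41 to 5.86) and Olfr122 (4.4, 2.07 to 9.03). Their ranges overlap one another, so this order is not a difference beyond the spread. It also pools 3 sets that were scaled separately: Olfr124 was highest in the first set (mean 10.7 CPM per kilobase, with 1 library at 15.8), and Olfr131 in the second (5.80) and the third (5.56). In the second set Olfr136 (2.20) lay below Olfr121 (3.23). Olfr131 was the one of the 5 that was not called with any of the 9 odors; its level lay between 5.88 and 16.3 CPM in the 36 libraries. Of the other 17 tested receptors without a call, none exceeded 8.40 CPM in a library.

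Genes that carry the receptor signal and genes that neurons switch on when they fire were looked at beside the receptors. The shares of all genes called in either direction, against which their counts stand, were 5.49% with acetophenone, 22.3% with decanal, 21.4% with the mixture of both, 32.3% with octanal, 5.74% with cis-3-hexenol, 32.5% with the octanal-hexenol mixture, 14.0% with floral, 11.2% with mint and 9.64% with the floral-mint mixture. Of 19 genes of olfactory transduction, 14 were called higher with acetophenone, 9 with decanal, 10 with their mixture, 16 with octanal, 10 with cis-3-hexenol, 15 with their mixture, 8 with floral, 12 with mint and 10 with the floral-mint mixture; 1 was lower with octanal and 1 with its mixture, and 0 in the other 7. The median log2 change of the list was 1.29 with octanal and 0.29 with floral, against -0.04 and -0.02 over all genes tested. With octanal the list included Pde1c (1.59, adjusted p = 2.24e-05), the calcium-dependent phosphodiesterase of the cilia, Ric8b (1.62, adjusted p = 2.91e-05), an exchange factor of the olfactory G protein, and Pde4a (1.37, adjusted p = 6.60e-05; edgeR). The markers of mature olfactory sensory neurons, whose rise is given above, are all members of this list. Their rise is therefore not separate from that of the list. Adcy3 is in the next list as well. Of 13 genes of receptor choice and trafficking, 8 were called higher with octanal and 5 with acetophenone, among them Rtp2, which carries receptors to the cell surface (1.69, adjusted p = 2.39e-05 with octanal; 0.72, adjusted p = 0.00151 with acetophenone; edgeR). With decanal 4 rose and 2 fell, Kdm1a (-0.96, adjusted p = 3.96e-05), a histone demethylase needed for receptor choice, and Ebf2 (-0.44, adjusted p = 0.00153; edgeR).

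Of 14 activity-dependent genes, set against the same shares, 9 were called higher with acetophenone, 11 with decanal, 9 with their mixture, 11 with octanal, 7 with cis-3-hexenol, 11 with their mixture and 10 with each of the fragrance groups. Arc fell with decanal (-1.23, adjusted p = 3.50e-05) and with the acetophenone-decanal mixture (-0.56, adjusted p = 0.00466; edgeR). The list holds genes chosen with earlier results of these libraries known, so its direction is not independent evidence.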

How the data were processed

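The authors deposited expected counts per gene (between 11.1% and 16.4% of values fractional per library) in 1 table per set; how they were made from the reads is not given in the sources used here. The submitters' processing notes name the GRCm39 assembly, the aligner STAR (2.7.10b), the quantifier Salmon (1.10.1) and R (4.4.2), and a stranded mRNA kit per the labels. Here values were rounded to whole numbers, and 52029 of 57010 gene identifiers were named from GENCODE vM21; the unnamed ones held 0.284% to 0.650% of counts and stayed in the fits. In each set, 12 libraries and 4 groups were fitted together with edgeR 4.0.16 (filterByExpr with a minimum count of 10 and a total of 15, TMM scaling, glmQLFit with prior count 0.125, glmQLFTest; R 4.3.3). P-values were adjusted over all genes tested. CPM use TMM-scaled library sizes within a set, and SE is the log2 change divided by the square root of F. Intervals cover 95%. Comparisons across sets were made in 1 case only, octanal against decanal, each relative to its own no odor group.

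The receptors and gene lists were chosen with earlier results of these data known. For each odor against no odor, the rule names up to 10 called receptors by smallest p, and for direct comparisons up to 6. For levels it names the 5 highest per kilobase, and up to 4 called genes per list. Some values outside this rule were given after they were seen. Most values that it names for the octanal-hexenol mixture, against no odor and against cis-3-hexenol, are not printed. One gene that the rule names is not reported here. Nothing in the labels ties replicate numbers to mice, so p-values measure the spread between 3 libraries per group. Near copies (blastn 2.17.0 between transcripts, at least 95% identity over 200 bases) were found for 20 of the 43 receptors. For 14 of them a copy lay inside the series, and the counts of all 20 are uncertain. Olfr119 and Olfr121, 95.5% identical over their coding bases, are not among the 20, but their reads may be shared as well. No 2 libraries of a group held identical values. Alternatives were DESeq2 1.42.0, its size factors, no filter on low counts, 1 fit of the 36 libraries, scaling to the median receptor gene, a replicate block and leaving out each library in turn. The tests were checked on simulated counts.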

Additional observations from a re-analysis of the deposited data

How the results depend on the processing

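Of 108 results of single receptors, 86 passed under each alternative run, 22 did not pass under at least 1, and 0 changed direction. Counts of called receptors moved by over 1.5 times in these cases, whose cause was not tested. Scaling to the median receptor gene gave 5 calls with cis-3-hexenol (3 higher and 2 lower). Without a filter on low counts there were 5 calls for floral against mint, 8 for mint and 4 for the floral-mint mixture against mint. DESeq2 gave 8 for mint and 4 for that mixture against mint. One fit of the 36 libraries gave 5 for the floral-mint mixture and 2 for mint. In that fit the mixture calls of Olfr92, Olfr114, Olfr126 and Olfr132 and the mint calls of Olfr95, Olfr132 and Olfr136 did not pass. Nor did the floral calls of Olfr92, Olfr121 and Olfr132, that of Olfr114 for floral against mint, and that of Olfr94 for the acetophenone-decanal mixture. Leaving out 1 library at a time gave 11 to 16 calls for acetophenone against decanal, 1 to 2 for the acetophenone-decanal mixture against decanal, 1 to 2 for floral against mint, 5 to 8 for floral, 1 to 2 for the floral-mint mixture against mint, 4 to 9 for the floral-mint mixture and 6 to 9 for the octanal-hexenol mixture against cis-3-hexenol. The other counts stayed within 1.5 times. Octanal kept 12 to 13 calls and octanal against decanal 11 to 13.

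Replicate numbers were not used to pair the libraries in the main fits. In the 3 sets, 5 of 12, 6 of 12 and 0 of 12 libraries correlated best with their own number. Counts over so few libraries cannot exclude a pairing. With a replicate block the counts stayed within 1.5 times of those without it, at 7 for acetophenone and 13 for octanal. Under the block 5 calls did not pass: Olfr109 (adjusted p = 0.111) and Olfr133 (0.0713) for the acetophenone-decanal mixture against decanal, Olfr97 for floral against mint (0.0610), Olfr136 for decanal (0.0581) and Olfr121 for floral (0.0622; edgeR). Depth limits the low receptors, such as Olfr113, Olfr114, Olfr134 and Olfr135, with fewer than 10 counts in many libraries.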

Other observations

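Genes of the MHC region were looked at beside the receptor series, a list of 27 genes whose distances from the series were not measured. Of these, 14, 15 and 13 could be tested in the sets of acetophenone, octanal and floral. Gabbr1, which encodes a subunit of the GABA-B receptor, was called higher with each of the 9 odors, with log2 changes between 0.50 and 1.01 (edgeR). With octanal 2 of 15 genes of this list were called higher and 5 lower, where 32.3% of all genes were called in either direction. The lower ones included the class I genes H2-K1 (-1.46), H2-T23 (-1.42), H2-D1 (-1.37) and H2-M3 (-1.22). With decanal 3 of 14 were called higher and 0 lower, a share near the 22.3% of all genes called, and H2-D1 was among them (0.46). The red blood cell and neutrophil markers moved in the same directions in these 2 comparisons: 6 of 6 and 4 of 4 were called lower with octanal, and 1 of 6 and 2 of 4 higher with decanal. Their part in the changes of the MHC region genes was not tested.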
